A study of Danio rerio with 36 samples.

Results

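Whole eyes of larval and of month-old zebrafish were compared gene by gene. The larval eyes came from fish labelled wild-type that served as controls of 2 heat-shock transgene lines at 5 days post-fertilization. One set of 3 libraries accompanied a line carrying hsp70l:eGFP-bmp4 (the bmp4 controls), and another set of 3 accompanied a line carrying hsp70l:shha-eGFP (the shh controls). The older eyes were 3 libraries of wild-type whole eyes at 1 month post-fertilization, which the sample titles name ZDR and which served as controls of lrp2 mutants. These are 9 of the 36 libraries of the study, which also holds dissected retina, RPE (retinal pigment epithelium) and choroid with sclera of month-old wild-type and lrp2-/- fish, lrp2-/- whole eyes, and larval eyes of both transgene lines. No label used here says whether the larval controls were heat-shocked, whether they were siblings of the transgenic fish or how many eyes went into a library. Nor does any label say that the 3 libraries of a group came from separate fish, so the p-values speak only of variation from library to library, part of which may be technical.

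The counts lie in 3 separately deposited tables, 1 for the month-old eyes and 1 for each larval line, so age and table cannot be told apart. A gene was kept only where it differed in the same direction against both larval control sets (edgeR quasi-likelihood test, Benjamini-Hochberg adjusted p under 0.05 in each comparison). This rule can screen out differences between the larval tables. It cannot separate age from table, since both comparisons use the same 3 month-old libraries. Of 31916 genes listed, 22014 had enough counts to be tested. At 1 month 3906 genes (17.7%) were higher and 3474 (15.8%) were lower against both sets, and these 7380 genes are the subject here. Throughout, a pair of log2 fold changes is given in the order 1 month against bmp4 controls, then 1 month against shh controls. SE is an approximate standard error, the size of such a value divided by the square root of its test's F statistic. It can be too small where a group has few counts. TPM is a level scaled for gene length and to a library total of 1000000.

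The zebrafish eye works within days of fertilization, long before it has its adult make-up. Larval vision rests mainly on cones, rods are added over the following weeks, and the retina grows for life from stem cells at its rim, the ciliary marginal zone. The lens lays down new fibre cells around old ones and changes the crystallin genes it uses as it grows, the RPE fills with melanin early and recycles the visual pigment chromophore, and blood cells exchange larval for adult globins.

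The libraries held 22884558 to 26708466 counts each, spread over 25045 to 25484 detected genes. Markers of retina, lens and RPE were present in all 9 libraries. Between the 2 larval control sets, which share an age and differ in table, 14 of 22014 genes (0.0636%) differed at an adjusted p under 0.05, and 2049 had an unadjusted p under 0.05. Across genes, Pearson's r of log2(TPM + 1) was 0.968 to 0.983 between libraries of the 2 larval sets and 0.885 to 0.903 between a larval and a month-old library. Library 12 of the shh controls stood apart from the other 5 larval libraries in photoreceptor genes, and library 13 of the bmp4 controls in globins. The median log2 fold change over all genes was 0.002 and −0.002 with the TMM scaling used here. It was −0.17 and −0.24 on the log2(TPM + 1) scale and −0.17 and −0.18 when counts were scaled to their totals. These scalings moved the split of 3906 higher and 3474 lower genes to 2594 and 5321 (limma on log2 TPM) and to 3011 and 5170 (total counts). Since whole eyes were sequenced, more cells of a type and more RNA per cell cannot be told apart in any result below.

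Against the bmp4 controls alone 4601 genes (20.9%) were higher and 4190 (19.0%) lower, and against the shh controls 4778 (21.7%) and 4479 (20.3%). These comparisons share the 3 month-old libraries. Differences of log2 1 or more in both were found for 2096 higher genes (9.52%) and 1142 lower genes (5.19%). Libraries that the selection did not use, lrp2-/- whole eyes at 1 month against larvae of the bmp4 and shha transgene lines, were tested in the same way. There 1868 genes (8.55%) were higher and 1270 (5.81%) lower. Library 13 of the shha transgene line stood apart in scaling, and without it the counts were 3509 (15.7%) and 3200 (14.3%). Of the 3906 higher genes 3837 were tested there, of which 3574 had both log2 values above 0, 1556 were called higher and 3 were called lower. Of the 3474 lower genes 3463 were tested there, of which 3307 had both values below 0, 1068 were called lower and 2 were called higher. These fish carry a mutation or a transgene, and their libraries sit in the same 3 tables.

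In the dissected tissues of month-old wild-type fish, the large differences were spread unevenly. Retina had the highest mean TPM for 52.2% of all genes tested, for 44.5% of the 2096 large higher genes and for 25.9% of the 1142 large lower genes. Choroid with sclera was the highest for 20.6% of all genes, 34.9% of the large higher and 26.3% of the large lower ones. For RPE these shares were 23.0%, 19.5% and 36.1%. No dissected tissue reached a mean of 1 TPM for 4.15% of all genes, 1.15% of the large higher and 11.7% of the large lower ones. Lens RNA was not spread evenly over the dissected libraries: the 53 crystallin genes summed to 61903 TPM in retina library 12 and to 259 to 496 TPM in the other 8. Without that library retina was the highest for 43.8% of the large higher genes and for 25.7% of the large lower ones.

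**Figure D1:**
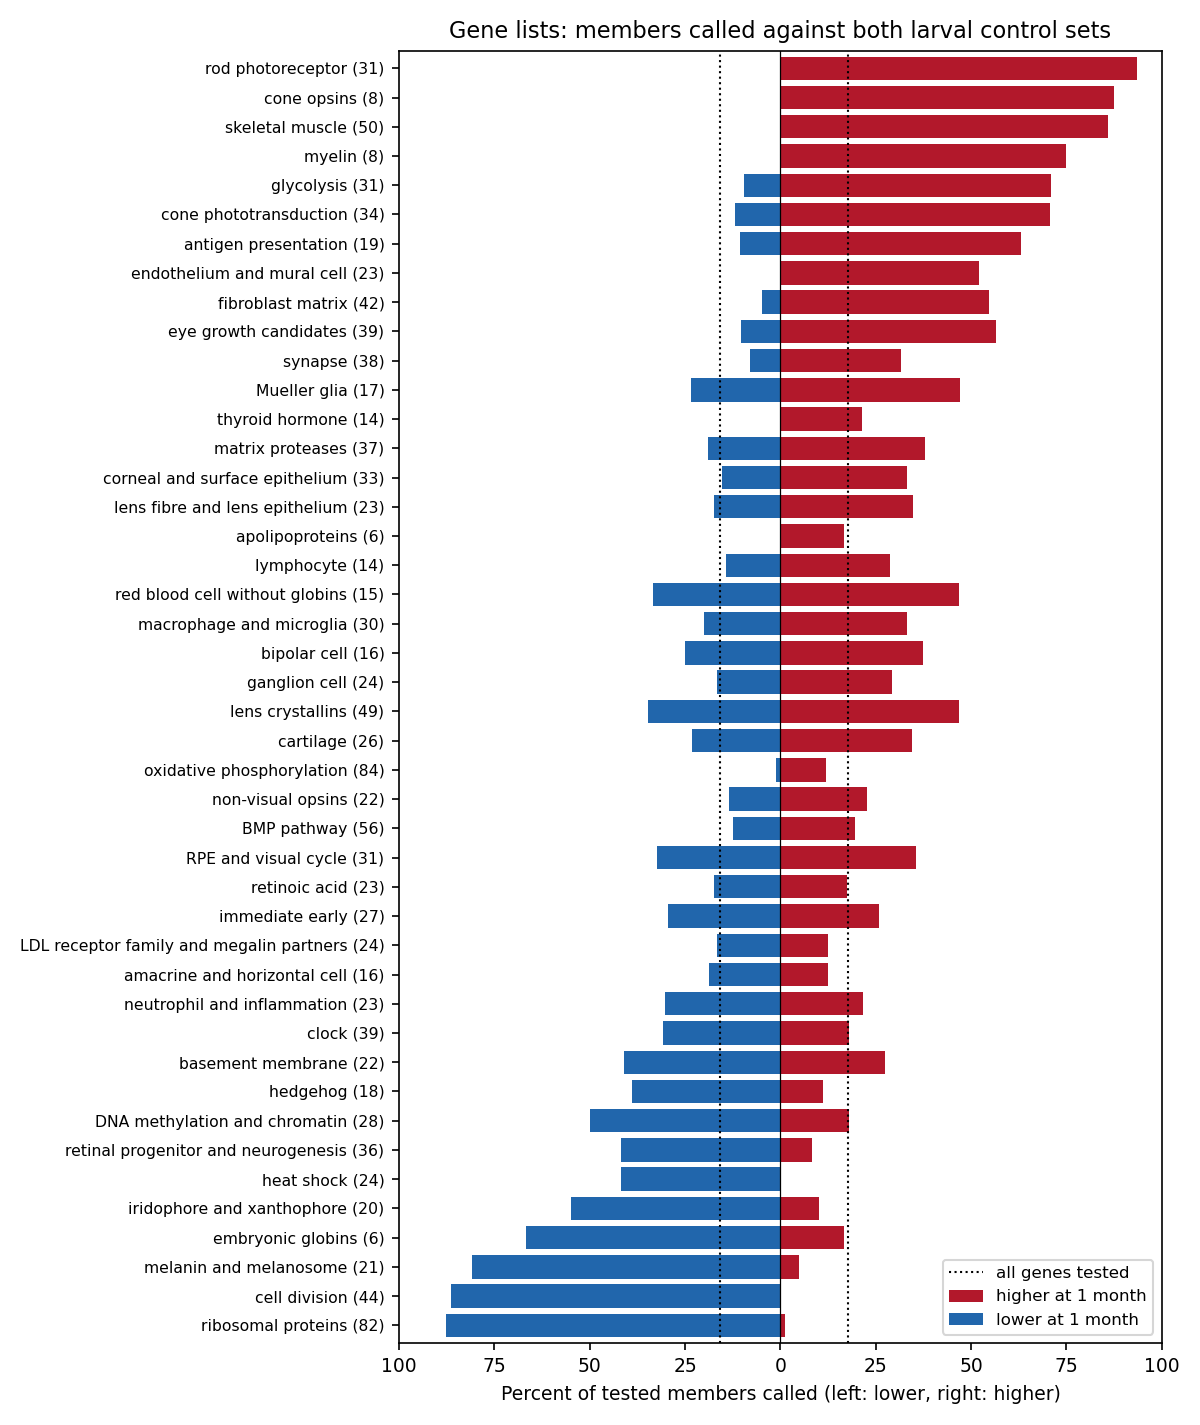
Share of tested members of each gene list (number of members in parentheses) that were higher (right, red) or lower (left, blue) at 1 month against both larval control sets, in percent. Dotted lines mark the shares over all genes tested, 17.7% and 15.8%; lists with fewer than 6 tested members are left out. Rod genes, cone opsins, skeletal muscle and myelin lie at the higher end and ribosomal proteins, cell division and melanin genes at the lower end.

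Rod photoreceptor genes were higher at 1 month almost throughout. Of 31 members all 31 were tested, 29 were higher and 0 lower, with median log2 3.08 and 2.64, against 17.7% of all genes higher. Their summed level was 31429, 32697 and 34770 TPM at 1 month, 2446, 2884 and 2651 in the bmp4 controls and 2239, 6704 and 2856 in the shh controls. The 3 month-old eyes lay together, and library 12 of the shh controls had more than the other 5 larval libraries but far less than any month-old one. Without that library 28 members were higher and 0 lower. The transducin subunit GNAT1, which passes on the light signal in rods, was at 2172, 2631 and 2699 TPM at 1 month, 49.2, 63.8 and 80.5 in the bmp4 controls and 39.8, 190 and 76.7 in the shh controls. The groups did not overlap, as was the case for 14.2% of all tested genes in this direction and for 28.1% in the other (TPM). Its difference was log2 5.48 (SE 0.54) and 4.93 (SE 0.53), at adjusted p of 3.14e-05 and 5.4e-05. PDE6B (ENSDARG00000000380), a catalytic subunit of the rod phosphodiesterase, differed by log2 5.35 and 4.67. Log2 changes of 5.43 and 4.73 were found for GUCA1B, an activator of guanylate cyclase, and of 4.19 and 4.16 for CNGA1 (ENSDARG00000029898), a subunit of the rod channel. In the lrp2-/- and transgenic libraries the log2 values of GNAT1 were 5.64 and 4.2.

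Cone opsins shifted in their proportions. Zebrafish have red (opn1lw), green (opn1mw), blue (opn1sw2) and ultraviolet (OPN1SW) cone opsins, the red and green ones as tandem copies with similar sequence between which reads may have been divided. Of 8 genes 7 were higher at 1 month and 0 lower. The ultraviolet opsin OPN1SW was the exception, at 3474, 3699 and 3824 TPM at 1 month, 6470, 3930 and 7304 in the bmp4 controls and 6361, 9230 and 6900 in the shh controls. All 6 larval libraries were above the 3 month-old ones, but the difference of log2 -0.49 (SE 0.25) and -0.73 (SE 0.25) passed the threshold against the shh controls only (adjusted p of 0.151 and 0.0405). It was called lower against both sets with total count scaling and on the log2 TPM scale. OPN1SW was the most abundant cone opsin in each of the 6 larval libraries, and the red opsin opn1lw2 in each of the 3 month-old ones. The gene opn1lw2 was at 4049, 4235 and 4727 TPM at 1 month, 835, 1022 and 1257 in the bmp4 controls and 879, 2987 and 1312 in the shh controls, and the difference was log2 2.28 (SE 0.39) and 1.64 (SE 0.39). Its tandem partner opn1lw1 was close to absent in larvae, with 1854, 1916 and 2334 TPM at 1 month, 11.4, 16.2 and 37.4 in the bmp4 controls and 13.9, 6.98 and 30.9 in the shh controls. Its log2 values were 6.57 and 7.08.

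The 4 green opsins covered a still wider range. The gene opn1mw1 was already abundant in larvae and was at 1760 ± 110 TPM at 1 month against 400 ± 69.4 and 651 ± 447 TPM (SD, n = 3 here and below; log2 2.34 and 1.75). Far larger log2 differences of 4.97 and 5.19 were found for opn1mw2, at 2456 against 92.6 and 82.6 TPM. The last members opn1mw3 and opn1mw4 were near 0 in larvae. For opn1mw4 the libraries held 331, 405 and 400 TPM at 1 month, 0.53, 0.4 and 1.31 in the bmp4 controls and 0.31, 0.52 and 0.45 in the shh controls, a difference of log2 9.16 (SE 0.37) and 10.09 (SE 0.39), and for opn1mw3 the log2 values were 8.33 and 8.21. The blue opsin opn1sw2 was at 3287, 3776 and 3867 TPM at 1 month, 700, 419 and 565 in the bmp4 controls and 467, 1399 and 472 in the shh controls (log2 2.92 and 2.55). Summed over copies, green opsins were at 4755, 5213 and 5530 TPM at 1 month, 446, 484 and 557 in the bmp4 controls and 366, 1239 and 605 in the shh controls, and red opsins at 5903, 6151 and 7061 TPM at 1 month, 846, 1038 and 1295 in the bmp4 controls and 893, 2994 and 1343 in the shh controls. In both sums library 12 of the shh controls was the highest larval library, and every month-old library was higher still. The 7 calls stood without that library, and 7 of 8 were higher in the lrp2-/- and transgenic libraries as well.

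**Figure D2:**
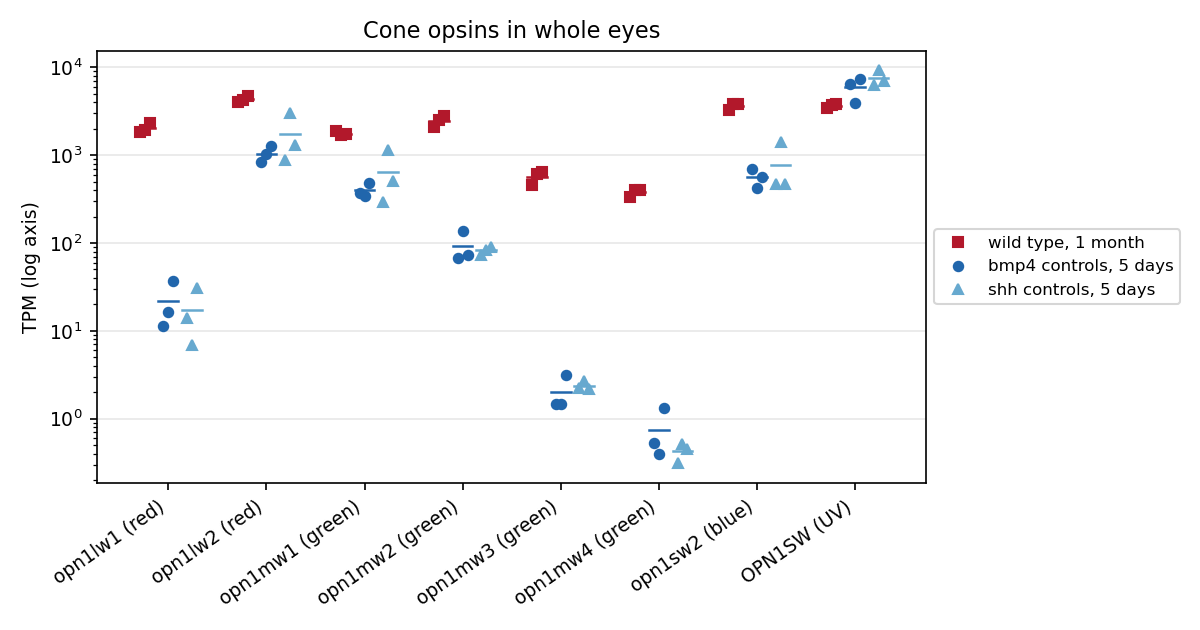
TPM (log axis) of the 8 cone opsins in each library: squares for 3 wild-type eyes at 1 month, circles for 3 bmp4 controls and triangles for 3 shh controls at 5 days; short lines are means. In 7 of the 8 genes every month-old library lies above every larval one, and OPN1SW is the exception.

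Of other genes of cone phototransduction 24 of 34 tested genes (70.6%, against 17.7% of all genes) were higher and 4 (11.8%, against 15.8%) lower. Median log2 values were 1.38 and 1.34. The inhibitory phosphodiesterase subunit pde6ha was the most abundant of them at 1 month, with 12645, 12429 and 11175 TPM at 1 month, 1034, 1624 and 1192 in the bmp4 controls and 769, 879 and 1026 in the shh controls. The groups were far apart, at log2 3.46 (SE 0.20) and 4.05 (SE 0.21). Log2 differences of 5.0 and 4.62 were found for PDE6H, a further inhibitory subunit, and of 4.23 and 4.89 for guca1d, a cyclase activator. The gene RGS9 (ENSDARG00000045156), which speeds up transducin shut-off, differed by 3.79 and 3.54. Lower members included GNB3, the cone transducin beta subunit, at 81 against 198 and 227 TPM, with log2 -1.07 and -1.19. The channel subunit CNGA3 (ENSDARG00000012297) differed by -0.98 and -1.15 and rbp4l, a retinol-binding protein gene, by -1.04 and -1.0. The cone transducin gamma subunit GNGT2 (ENSDARG00000103543) was already abundant in larvae and differed by less, at 4531 against 2992 and 4015 TPM, with log2 0.81 and 0.47. In the lrp2-/- and transgenic libraries 12 of the 34 genes were higher and 2 lower, and 17 and 6 without library 13 of the shha line.

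Genes of inner retinal cell types differed in both directions. Of bipolar cell genes 6 of 16 tested genes were higher and 4 lower, of amacrine and horizontal cell genes 2 of 16 were higher and 3 lower (12.5% and 18.8%, near the 17.7% and 15.8% of all genes), and of ganglion cell genes 7 of 24 were higher and 4 lower. The 6 higher bipolar genes were 3 with total count scaling and on the log2 TPM scale, and 2 without month-old library 3. The 3 lower amacrine and horizontal genes were 1 without month-old library 1 or 3, and 5 on the log2 TPM scale. The receptor GRM6 (ENSDARG00000025671), which takes up the photoreceptor signal in ON bipolar cells, was lower at 1 month (12.3 against 37.9 and 45.1 TPM, log2 -1.4 and -1.58), and so was the bipolar transcription factor VSX1 (log2 -0.92 and -1.05). Intermediate filament genes of axons were higher, namely nefma (log2 3.99 and 3.98), nefmb (4.87 and 4.98) and INA (ENSDARG00000011862; 356 against 63.9 and 61.1 TPM, log2 2.7 and 2.86). The ganglion cell transcription factors POU4F2 (log2 -0.70 and -0.82) and ISL2 (ENSDARG00000003971; -0.94 and -1.23) were lower. Of synapse genes 12 of 38 tested genes were higher and 3 lower, with 6 lower under total count scaling, 7 on the log2 TPM scale, and 0 without month-old library 3 and in the lrp2-/- and transgenic libraries. Complexins of ribbon synapses led them: CPLX4 (ENSDARG00000059486) had 412 counts at 1 month and 2 in each larval set, a ratio after scaling of 235 to the bmp4 controls (95% exact interval 64.8 to 1951) and of 242 to the shh controls (66.5 to 2002), intervals that cover counting error only, and cplx4c was at 74.9 against 2.98 and 5.31 TPM (log2 4.91 and 4.07). Mueller glia genes split as well, with 8 of 17 higher and 4 lower. The retinal carbonic anhydrase cahz was higher (237 against 34.4 and 35.7 TPM, log2 3.03 and 3.04), and glutamine synthetase GLUL (ENSDARG00000100003) was lower (164 against 591 and 603 TPM, log2 -1.64 and -1.6).

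The lens exchanged members within 1 gene family. Crystallins are the soluble proteins that fill lens fibre cells, and 53 genes carried such a symbol, all of which were tested: 26 were higher at 1 month and 17 lower. All 17 lower genes were crygm2d copies, of which there were 18. Their reads may have been divided among near-identical copies, so their sum is the firmer value, and it was 27745, 22080 and 22161 TPM at 1 month, 94855, 86939 and 113578 in the bmp4 controls and 75661, 85714 and 105527 in the shh controls. That is 2.4% of all TPM at 1 month against 9.85% and 8.9% in the larval sets. The other gamma M crystallins moved the opposite way, with 11 of 12 higher and 0 lower, and summed to 100090, 116570 and 102395 TPM at 1 month, 10470, 9709 and 12323 in the bmp4 controls and 9494, 10077 and 11071 in the shh controls. Neither sum had overlapping ages. As a whole, the 53 crystallins took 27.1% of TPM at 1 month and 22.3% and 20.5% in the larval sets.

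Several of these genes were nearly silent at 5 days. The gene crygm3 was at 14878, 19803 and 16920 TPM at 1 month, 15, 16.7 and 19 in the bmp4 controls and 13.2, 23 and 39 in the shh controls, with log2 10.2 (SE 0.49) and 9.7 (SE 0.48). For crygm2a the libraries held 15485, 16928 and 15277 TPM at 1 month, 8.72, 9.36 and 18.1 in the bmp4 controls and 8.18, 7.02 and 10.8 in the shh controls (log2 10.55 and 11.13). Differences in log2 of 12.54 and 12.16 for crygm4, 11.99 and 12.23 for crygm6, 9.09 and 9.83 for crygm7 and 8.49 and 9.6 for crygm1 were of similar size. The gene crygmx was already abundant in larvae, at 10637 against 3920 and 4008 TPM (log2 1.65 and 1.72). At the other end stood crygm2d16, with 11.9, 17.4 and 26.3 TPM at 1 month, 3166, 2767 and 3952 in the bmp4 controls and 2703, 2527 and 3249 in the shh controls and log2 -7.31 (SE 0.37) and -7.0 (SE 0.36), and crygm2d18, with log2 -6.85 and -6.79. The most abundant copy in larvae, crygm2d13, was at 3008, 2084 and 2008 TPM at 1 month, 11243, 10337 and 13742 in the bmp4 controls and 9283, 10271 and 12684 in the shh controls (log2 -2.12 and -1.91). The copy crygm2d10 was the only 1 of the 18 that was not called (log2 -0.33 and -0.02).

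Beta crystallins were divided by gene, and alpha crystallins were higher. Of 14 beta crystallins 7 were higher, 0 lower and the other 7 not called. CRYBB2 and CRYBB3 were close to 0 in larvae and abundant at 1 month, at 11177 against 4.17 and 6.15 TPM (log2 11.6 and 11.1) and 3267 against 0.833 and 0.417 TPM (log2 12.15 and 13.24). CRYBB1, the most abundant crystallin of larvae, was at 17814 ± 677 TPM at 1 month against 21966 ± 1066 and 19716 ± 1869 TPM, a difference that did not pass the test (log2 -0.09 and 0.15, adjusted p of 0.686 and 0.473). All 3 alpha crystallins were higher, with log2 2.2 and 2.32 for CRYAA and 10.83 and 9.82 for CRYAB (ENSDARG00000101380). Of 6 gamma S and N crystallins 5 were higher, among them crygs3 (log2 11.53 and 10.84) and CRYGS (ENSDARG00000041171; 10.01 and 9.55). Of 23 genes of lens fibres and epithelium other than crystallins 8 (34.8%) were higher and 4 (17.4%) lower. The share higher stood against 17.7% of all genes, and the share lower lay near the 15.8% of all genes. The fibre membrane gene lim2.2 was higher (log2 4.72 and 4.7) and its relative LIM2 (ENSDARG00000015445) lower (-0.98 and -0.78). Likewise lower was foxe3, a transcription factor of the lens epithelium (log2 -0.84 and -0.79). In the lrp2-/- and transgenic libraries 3 genes of this list were higher and 3 lower, and 7 and 4 without library 13 of the shha line.

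**Figure D3:**
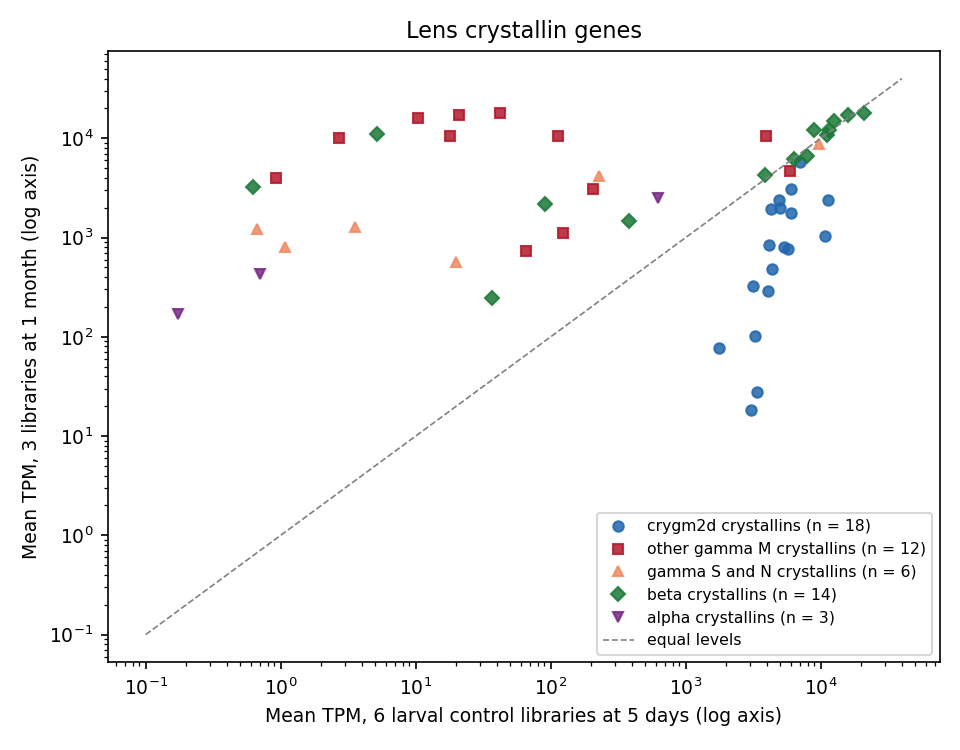
Mean TPM of 53 crystallin genes in the 6 larval control libraries (horizontal, log axis) against the 3 libraries at 1 month (vertical, log axis), by class; the dashed line marks equal levels. The crygm2d genes lie on or below the line, most other gamma M crystallins far above it, and most beta crystallins close to it.

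Melanin genes were lower at 1 month. Of 22 members 21 were tested, 17 were lower and 1 higher, with median log2 -1.79 and -1.6, against 15.8% of all genes lower. Summed over the list the level was 351, 418 and 554 TPM at 1 month, 3156, 4352 and 2930 in the bmp4 controls and 3118, 3811 and 2978 in the shh controls. The ages were well apart, and library 12 of the bmp4 controls was the highest. Tyrosinase, TYR, which starts melanin synthesis, was at 1.49, 1.57 and 3.01 TPM at 1 month, 110, 138 and 64.8 in the bmp4 controls and 115, 137 and 74.4 in the shh controls. This was a difference of log2 -5.45 (SE 0.34) and -5.45 (SE 0.34). The melanosomal enzyme TYRP1 (ENSDARG00000056151) was at 79.9, 78.5 and 125 TPM at 1 month, 997, 1511 and 1008 in the bmp4 controls and 1013, 1223 and 995 in the shh controls, with log2 -3.41 (SE 0.21) and -3.21 (SE 0.21). Log2 values were -3.79 and -3.72 for the dopachrome tautomerase DCT, -5.36 and -5.22 for the melanosomal exchanger SLC24A5 and -3.65 and -3.7 for the transporter SLC45A2. In the lrp2-/- and transgenic libraries TYR differed by log2 -4.56 and -4.06 and DCT by -2.63 and -2.75. At 1 month DCT was at 1322 TPM in RPE, 21.7 in retina and 15.6 in choroid with sclera. Genes of pigment cells other than melanocytes were often lower too, with 11 of 20 iridophore and xanthophore genes lower and 2 higher (7 lower without month-old library 1, and 0 higher without that library, without library 13 of the bmp4 controls, with total count scaling and on the log2 TPM scale). These included gch2, which makes pteridine pigment (log2 -2.34 and -2.14), and pnp4a, a purine enzyme of iridophores (-2.02 and -1.71).

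Genes of the visual cycle went both ways. The list holds enzymes and binding proteins that regenerate the chromophore, some used in the RPE and some in photoreceptors or Mueller cells. Of 31 tested genes 11 (35.5%) were higher and 10 (32.3%) lower, against 17.7% and 15.8% of all genes. The isomerase RPE65 (ENSDARG00000007480) was at 51.7, 59.4 and 88.6 TPM at 1 month, 671, 984 and 667 in the bmp4 controls and 657, 821 and 761 in the shh controls. The difference was log2 -3.31 (SE 0.22) and -3.19 (SE 0.22), with no overlap of the ages. Retinol dehydrogenase rdh5 (log2 -3.46 and -3.24), the acyltransferase lratb.2 (-5.4 and -5.38) and the retinol uptake receptor STRA6 (-2.01 and -1.67) were lower too. At 1 month rdh5 stood at 647 TPM in RPE and 3.94 in retina. The 4 members given next, used in photoreceptors or Mueller glia, were higher. The interphotoreceptor retinoid-binding protein rbp3 was at 1363, 1123 and 1347 TPM at 1 month, 417, 466 and 441 in the bmp4 controls and 425, 417 and 404 in the shh controls (log2 1.75 and 1.92). Log2 values were 2.18 and 2.03 and 2.06 and 1.67 for the photoreceptor transporters ABCA4 (ENSDARG00000057169) and ABCA4 (ENSDARG00000062661), and 1.88 and 1.71 for the retinal-binding protein rlbp1a, which stood at 561 TPM in retina and 30.3 in RPE. The 4 lower genes named here moved in the same direction as the melanin list, whose sum was 351 to 554 TPM at 1 month against 2930 to 4352 in larvae, and the part of the amount of RPE in the samples was not tested.

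**Figure D4:**
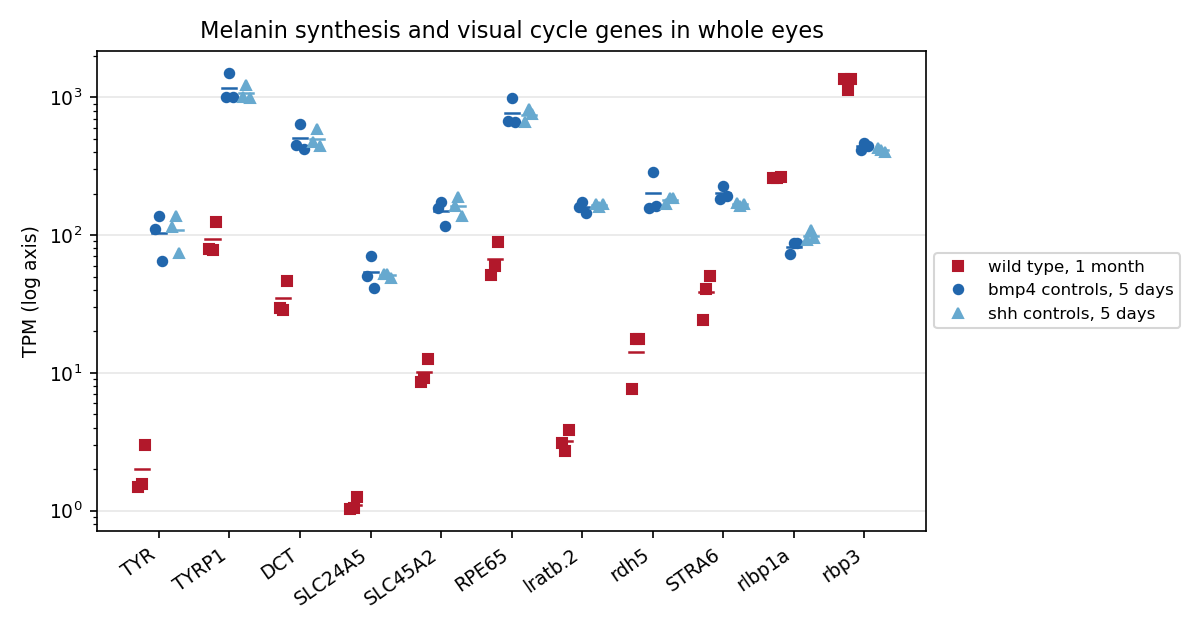
TPM (log axis) of 5 melanin genes and 6 visual cycle genes in each library: squares for 3 wild-type eyes at 1 month, circles for 3 bmp4 controls and triangles for 3 shh controls at 5 days; short lines are means. The first 9 genes lie lower in all 3 month-old libraries than in all 6 larval ones, and rlbp1a and rbp3 lie higher.

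Embryonic and adult globin genes mostly differed in opposite directions. Of the genes annotated as embryonic alpha globins, hbae3 was at 0.4, 0.25 and 0.14 TPM at 1 month, 238, 308 and 78.4 in the bmp4 controls and 372, 277 and 233 in the shh controls. The difference was log2 -9.63 (SE 0.65) and -10.05 (SE 0.65). The genes hbae1.1, hbae1.2 and hbae1.3 were lower, with log2 of -3.39 and -4.63, -5.23 and -4.85 and -3.83 and -5.07. Library 13 of the bmp4 controls had the lowest level of hbae1.1, hbae1.2, hbae1.3 and hbae3 among the 6 larval libraries. Without it 4 of the embryonic globins were still lower and 1 higher. Not all with an embryonic symbol were lower: hbae4 was higher (5.24 against 0.493 and 0.703 TPM, log2 3.63 and 3.18), and hbae5 was at 34.5 against 2.97 and 12.1 TPM, with log2 3.8 and 1.81 and adjusted p of 0.00844 and 0.1. The adult alpha globin hbaa1 was at 3136, 2716 and 2048 TPM at 1 month, 0.55, 0.29 and 0.54 in the bmp4 controls and 0.26, 0 and 0.2 in the shh controls, with log2 12.68 (SE 0.35) and 14.14 (SE 0.38). Its copy hbaa2, which was not tested for low counts, was at 2.59 against 0.07 and 0.0367 TPM. The gene hbbe3, also untested, was at 0 against 0.123 and 0.04 TPM.

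Beta globins carry the symbol of their human orthologue, HBE1, whatever their stage in zebrafish. HBE1 (ENSDARG00000089087) was at 6536, 5396 and 4794 TPM at 1 month, 0.55, 0.23 and 0.67 in the bmp4 controls and 0.59, 0.27 and 0.96 in the shh controls. HBE1 (ENSDARG00000097238) had 0 counts in all 6 larval libraries and 24692 counts in the 3 month-old ones, at least 9408-fold higher than the bmp4 controls and at least 9653-fold higher than the shh controls (floor of 3 counts over the group). In the opposite direction, HBE1 (ENSDARG00000087390) was at 0.31, 0.55 and 0 TPM at 1 month, 154, 164 and 9.72 in the bmp4 controls and 84.2, 62.3 and 37.3 in the shh controls (log2 -8.22 and -7.37). Other red cell genes were divided, with 7 of 15 higher and 5 lower. The erythroid heme enzyme alas2 was higher (55.2 against 6.99 and 6.61 TPM, log2 3.3 and 3.41), as were klf1, an erythroid transcription factor (3.62 and 3.29), and the membrane protein gene epb41b (3.66 and 3.41). The transferrin receptor tfr1a was lower (4.03 against 27.2 and 25.4 TPM, log2 -2.55 and -2.36).

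**Figure D5:**
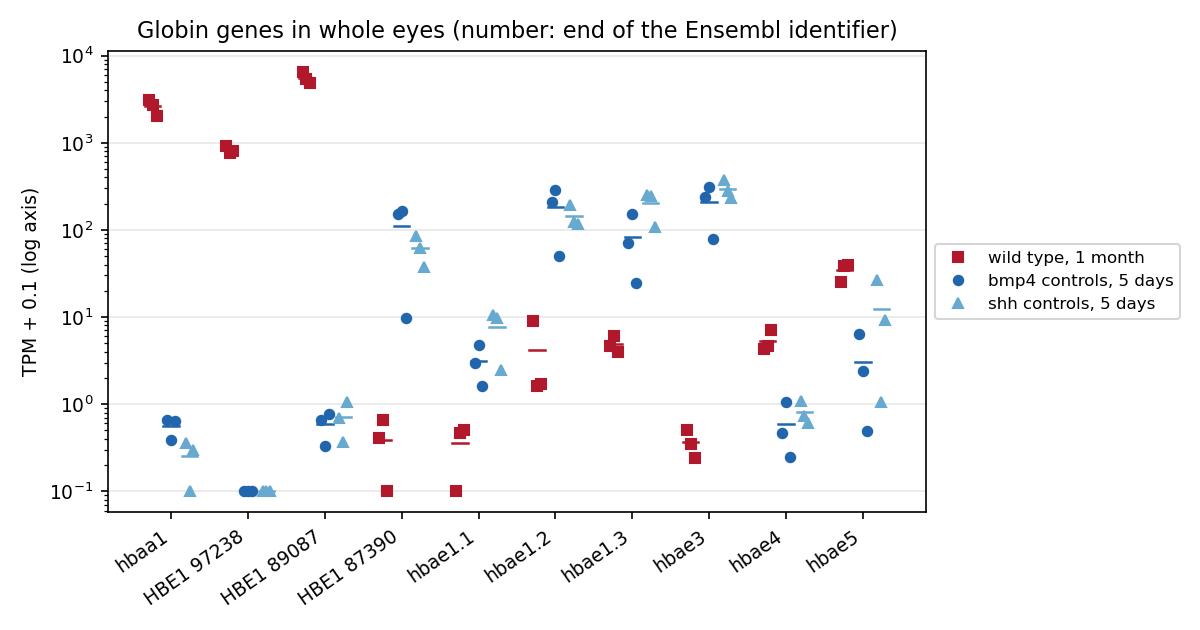
TPM plus 0.1 (log axis) of 10 globin genes in each library: squares for 3 wild-type eyes at 1 month, circles for 3 bmp4 controls and triangles for 3 shh controls at 5 days; short lines are means, and HBE1 copies carry the end of their Ensembl identifier. The gene hbaa1 and 2 HBE1 copies are high only at 1 month, and another HBE1 copy, hbae1.1, hbae1.2, hbae1.3 and hbae3 are higher in larvae.

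Genes of cell division were lower at 1 month. Of 44 tested members 38 were lower and 0 higher, with median log2 -1.04 and -1.1. Summed TPM were 753, 507 and 617 TPM at 1 month, 1534, 1420 and 1665 in the bmp4 controls and 1611, 1943 and 1485 in the shh controls. PCNA, the sliding clamp of DNA replication and the most abundant of them, was at 130, 110 and 110 TPM at 1 month, 274, 255 and 310 in the bmp4 controls and 280, 356 and 262 in the shh controls (log2 -1.04 and -1.05, adjusted p of 0.000346 and 0.000322). The helicase subunit MCM4 differed by log2 -1.53 and -1.54, the replication licensing regulators CDC6 and GMNN by -1.57 and -1.55 and -1.64 and -1.5, and the ribonucleotide reductase subunit RRM2 (ENSDARG00000078069) by -1.88 and -1.94. In the lrp2-/- and transgenic libraries 26 members were lower and 0 higher.

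Progenitor genes were lower in part. Of 36 tested members 15 (41.7%) were lower and 3 higher, against 15.8% of all genes lower. With total count scaling 20 were lower, and on the log2 TPM scale 21. In the lrp2-/- and transgenic libraries 5 of 35 were lower and 1 higher, and 9 and 3 without library 13 of the shha line. SOX2, a transcription factor of retinal stem cells, was at 27, 19.2 and 22.6 TPM at 1 month, 90.4, 86.3 and 74.1 in the bmp4 controls and 93.6, 96.3 and 85.7 in the shh controls (log2 -1.65 and -1.71). The proneural gene ascl1a (log2 -1.43 and -1.69), the Notch target her4.1 (-1.84 and -1.49) and NOTCH1 (ENSDARG00000103554; -1.35 and -1.72) were lower as well. The homeobox genes rx1 and rx2, which photoreceptors also express, were higher (log2 1.32 and 1.26 and 2.74 and 2.47). Of chromatin genes 14 of 28 were lower and 5 higher. The share lower was above the 15.8% of all genes, and the share higher lay near the 17.7% of all genes. The higher ones were 3 with total count scaling, 1 on the log2 TPM scale and 0 in the lrp2-/- and transgenic libraries, where 8 were lower. HMGA2, a chromatin protein of proliferating embryonic cells, differed most among those named, at 2.36 against 26.4 and 25.7 TPM (log2 -3.26 and -3.14). The methyltransferases DNMT1 and dnmt3bb.2 differed by log2 -1.02 and -1.16 and -2.1 and -2.51 and their partner UHRF1 by -1.68 and -1.78. DNMT3A (ENSDARG00000005394) was higher (1.65 and 1.51).

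Ribosomal protein genes were lower almost throughout, by a step whose size depended on the scaling. Of 82 tested genes 72 were lower and 1 higher, with median log2 -0.66 and -0.51, and none of the 72 reached log2 1 in both comparisons. On the log2 TPM scale the medians were -0.88 and -0.81. In all these genes took 80059, 83814 and 84439 TPM at 1 month, 149517, 148695 and 156830 in the bmp4 controls and 155954, 135212 and 145485 in the shh controls. That is 8.28% of TPM at 1 month against 15.2% and 14.6% in the larval sets. The most abundant in larvae, rps20, was at 2503 ± 135 TPM at 1 month against 5402 ± 352 and 5430 ± 159 TPM (log2 -0.75 and -0.60), and rplp2l differed by -1.14 and -0.93. The count of lower genes was 73 to 79 with total count or RLE scaling, with crystallins left out, in DESeq2 and on the log2 TPM scale. It was 56 without month-old library 1 and 54 without month-old library 3. In the lrp2-/- and transgenic libraries 0 were called lower with library 13 of the shha line and 67 without it.

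Genes of muscle, myelin and fibroblast matrix were mostly higher at 1 month. Of 50 tested skeletal muscle genes 43 were higher and 0 lower, with median log2 3.43 and 3.15. On the log2 TPM scale, which understates low genes, 38 were higher and the medians were 1.14 and 1.02. Their sum was 791, 686 and 405 TPM at 1 month, 218, 236 and 229 in the bmp4 controls and 199, 218 and 214 in the shh controls, and month-old library 3 had the least of the older eyes. Most were low in absolute terms: atp2a1l, a calcium pump of fast muscle, was at 11.6 against 0.313 and 0.507 TPM (log2 6.23 and 5.53), and the myosin gene myhc4 at 5.36 against 0.383 and 0.703 TPM (7.08 and 6.36). Myelin genes were higher in 6 of 8 cases and lower in 0, with summed TPM of 262 in month-old library 1, 663 and 572 in the other month-old libraries, and 48.3 to 60.6 in larvae. Myelin basic protein mbpa was at 127, 420 and 349 TPM at 1 month, 3.36, 7.44 and 4.7 in the bmp4 controls and 3.61, 3.05 and 4.98 in the shh controls, with log2 6.1 (SE 0.51) and 6.65 (SE 0.52). The myelin genes plp1b (log2 6.0 and 6.09) and the claudin cldnk (4.86 and 4.02) showed the same direction. At 1 month mbpa was at 3631 TPM in choroid with sclera, 234 in RPE and 200 in retina.

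Fibroblast matrix genes were higher for 23 of 42 members and lower for 2 (0 lower without library 12 of the shh controls). KERA, the corneal proteoglycan keratocan, was at 525, 563 and 586 TPM at 1 month, 14.1, 17.4 and 17.3 in the bmp4 controls and 18.6, 30.9 and 14.7 in the shh controls (log2 5.29 and 4.8). The gene pcolceb, an enhancer of collagen processing, differed by 4.12 and 5.75, and COL8A1, a collagen of vascular and basement membrane matrix, by 5.28 and 7.7, though the latter reached only 2.78 TPM. The most abundant, SPARC, was at 751 against 527 and 435 TPM (log2 0.77 and 1.12). Cartilage genes were divided, with 9 of 26 (34.6%) higher and 6 (23.1%) lower, against 17.7% and 15.8% of all genes. Among the higher were ucmaa (log2 5.18 and 5.79) and chad (3.26 and 4.06), which mature cartilage expresses, and among the lower MATN4 (-2.01 and -1.63), SOX9 (ENSDARG00000003293; -1.43 and -1.59) and the fibrillar collagen COL2A1 (ENSDARG00000069093; -1.2 and -1.58). In the lrp2-/- and transgenic libraries 7 of 26 cartilage genes were higher and 1 lower, with log2 -0.44 and -0.67 for this COL2A1 gene. Of basement membrane genes 6 of 22 were higher (2 on the log2 TPM scale) and 9 lower (4 without month-old library 3). These shares of 27.3% and 40.9% stood against 17.7% and 15.8% of all genes. The laminin LAMA1 was at 0.687 against 10.1 and 12.8 TPM (log2 -3.65 and -3.94). In the lrp2-/- and transgenic libraries 5 of 22 basement membrane genes were higher and 1 lower, with list medians of log2 0.24 and 0.27. Genes of endothelium and mural cells were higher for 12 of 23 and lower for 0, with von Willebrand factor, vwf, at log2 4.9 and 4.99.

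Keratin genes, which surface epithelia express, differed in both directions. Of 22 genes with a keratin or cyt1 symbol 19 were tested, 6 (31.6%) were higher, 4 (21.1%) lower and 9 not called. Their median log2 values were -0.24 and -0.06. Of the epithelial list 11 of 33 (33.3%) were higher and 5 (15.2%) lower. Over all genes the shares were 17.7% and 15.8%, so the share of the epithelial list that was lower lay near that of all genes. The larval skin keratin genes cyt1 and cyt1l were at 69.8 against 1356 and 1466 TPM (log2 -4.07 and -4.09) and 34.1 against 888 and 1179 TPM (log2 -4.62 and -4.94), and krt4 at 488, 523 and 629 TPM at 1 month, 2375, 2283 and 2217 in the bmp4 controls and 2477, 2188 and 2271 in the shh controls (log2 -1.85 and -1.78). Higher at 1 month were krt91, at 2222, 3460 and 3779 TPM at 1 month, 1082, 853 and 1166 in the bmp4 controls and 1343, 1024 and 1122 in the shh controls (log2 1.82 and 1.74), and krt15 (log2 2.75 and 3.13). Summed over all 22 the level was 7041 ± 1068 TPM at 1 month and 8480 ± 503 and 9109 ± 928 in larvae.

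Immune genes differed from list to list. Of antigen presentation genes 12 of 19 (63.2%) were higher and 2 (10.5%) lower, against 17.7% and 15.8% of all genes. The invariant chain gene cd74a, a partner of MHC class II, was at 75, 76.8 and 83.4 TPM at 1 month, 0.58, 0.58 and 1.1 in the bmp4 controls and 0.73, 0.42 and 0.72 in the shh controls, with log2 7.03 (SE 0.29) and 7.42 (SE 0.30). The second copy cd74b (log2 5.71 and 5.96) and the class II gene mhc2dab (6.8 and 7.37) were likewise higher, and the peptide transporter subunits TAP1 and tap2t were lower (-0.80 and -0.67 and -1.68 and -1.4). Genes of this family often have close copies, so single values are uncertain. Of macrophage and microglia genes 10 of 30 were higher and 6 lower (6 and 3 without month-old library 3), and of lymphocyte genes 4 of 14 and 2. In both lists the share higher was above the 17.7% of all genes, and the share lower lay near the 15.8% of all genes. Both lists were low in TPM, with sums of 224 and 26.2 at 1 month. Of neutrophil and inflammation genes 5 of 23 (21.7%) were higher and 7 (30.4%) lower. The higher ones were 2 with total count scaling, on the log2 TPM scale and without month-old library 3, and 3 without library 12 of the shh controls. Complement component c7b was at 5.46, 6.56 and 6.76 TPM at 1 month, 424, 348 and 245 in the bmp4 controls and 257, 225 and 242 in the shh controls (log2 -5.52 and -4.97), and the chemokine cxcl18b at 3.64 against 133 and 148 TPM (log2 -4.98 and -5.04). Complement genes c4b and cfb were lower too, while cfd, complement factor D, was higher (82.3 against 2.67 and 0.76 TPM, log2 5.08 and 7.05).

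The genes with the largest lower values outside lens and blood included secreted signals. Both leptin genes were nearly absent at 1 month: lepb was at 0.11, 0.1 and 0.34 TPM at 1 month, 47.4, 36.9 and 39.3 in the bmp4 controls and 48.3, 20.5 and 32 in the shh controls (log2 -7.55 and -7.18), and lepa at 0.31 against 16.3 and 17.1 TPM (log2 -5.49 and -5.51). The interleukin il11a was at 0.19, 0.17 and 0.2 TPM at 1 month, 31.9, 17.4 and 17.2 in the bmp4 controls and 26.3, 26.5 and 23.8 in the shh controls, with log2 -6.65 (SE 0.31) and -6.78 (SE 0.31). The fusion receptor gene ocstamp, known from osteoclasts in mouse, was at 0.11 against 40.2 and 47.9 TPM (log2 -8.25 and -8.43). Further genes were the filamin FLNC (ENSDARG00000018566; -6.75 and -6.09), the zinc transporter SLC30A8 (-6.25 and -6.33), the fucosyltransferase fut9d (-6.81 and -6.54) and the chemokine ccl34a.4 (-5.52 and -5.9). In the lrp2-/- and transgenic libraries lepb differed by log2 -6.59 and -6.81 and il11a by -5.29 and -5.13.

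Heat shock genes were lower in part, and immediate early genes differed in both directions. Of 24 heat shock genes 10 (41.7%) were lower and 0 higher, against 15.8% and 17.7% of all genes. The chaperone regulator BAG3 was at 3.38, 4.02 and 4.22 TPM at 1 month, 36.7, 30.6 and 26.4 in the bmp4 controls and 48.6, 28.6 and 32 in the shh controls (log2 -2.78 and -2.93), the small heat shock gene HSPB1 at 34.5 against 251 and 126 TPM (log2 -2.63 and -1.58), and the inducible hspa1b differed by -4.66 and -3.29. The gene hsp70l, whose promoter drives both transgenes of the study, was at 28.8, 22.6 and 17.6 TPM at 1 month, 32.5, 134 and 57.3 in the bmp4 controls and 23.7, 29.1 and 37.1 in the shh controls, and its log2 values of -1.46 and -0.10 passed the test against the bmp4 controls only (adjusted p of 0.0171 and 0.872). Of 27 immediate early genes 7 (25.9%) were higher and 8 (29.6%) lower, with 4 higher on the log2 TPM scale and 4 without month-old library 3. Their median log2 was 0.32 and 0.25, and -0.06 and -0.03 on the log2 TPM scale. The transcription factors JUN, at 42.5, 44.1 and 50.5 TPM at 1 month, 466, 486 and 315 in the bmp4 controls and 455, 329 and 520 in the shh controls (log2 -3.14 and -3.1), ATF3, at 4.16 against 144 and 142 TPM (log2 -4.9 and -4.82), and FOSL1 (-4.3 and -4.16) were lower, as was the cytokine inhibitor SOCS3 (ENSDARG00000026611; -3.44 and -3.63). The flow-responsive factor klf2a was higher (87 against 4.79 and 3.79 TPM, log2 4.44 and 4.85), and so were ier2b (1.46 and 1.46) and NPAS4 (ENSDARG00000055752; 2.56 and 3.23). No label used here gives the handling of the larvae before dissection.

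Energy metabolism differed by isoform. Of 31 glycolysis genes 22 were higher and 3 lower, with median log2 1.02 and 0.86. On the log2 TPM scale the medians were 0.60 and 0.55. The most abundant, GAPDHS, was at 1612, 1728 and 1658 TPM at 1 month, 830, 1020 and 930 in the bmp4 controls and 1096, 1239 and 1188 in the shh controls (log2 1.07 and 0.81). The largest log2 values belonged to PFKM (ENSDARG00000060797; 5.29 and 4.93), ALDOA (ENSDARG00000034470; 4.57 and 4.36), PKM (ENSDARG00000099860; 4.19 and 3.62) and GAPDH (3.95 and 3.3), which are prominent in muscle in many vertebrates. The hexokinases HK1 and HK2 and the glucose transporter SLC2A1 (ENSDARG00000007412) were lower (-0.79 and -0.63, -2.45 and -2.5 and -1.04 and -0.77). Nuclear genes of oxidative phosphorylation were mostly not called, with 10 of 84 (11.9%) higher and 1 (1.19%) lower. Both shares were under the 17.7% and 15.8% of all genes. On the log2 TPM scale 6 were higher and 17 lower, with total count scaling 6 were higher and 5 lower, and without library 13 of the bmp4 controls 16 were higher. The respiratory subunits cox4i1l (log2 5.1 and 4.67) and cox8b (3.26 and 3.53) led the higher ones, but reached only 8.14 and 8.18 TPM at 1 month. The more abundant COX4I2 was at 252 against 112 and 110 TPM (log2 1.39 and 1.51). Summed skeletal muscle TPM was 405 to 791 at 1 month against 199 to 236 in larvae, and its part in the glycolysis values was not tested.

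Of signalling pathways, thyroid hormone genes had 3 of 14 higher and 0 lower (2 lower without library 13 of the bmp4 controls or month-old library 1). The 21.4% higher lay near the 17.7% of all genes, and 15.8% of all genes were lower. The receptor THRB, which zebrafish red cones need, was at 80.7, 72.1 and 85.3 TPM at 1 month, 17, 17.1 and 21.6 in the bmp4 controls and 18.1, 23.9 and 13.9 in the shh controls, with log2 2.43 (SE 0.19) and 2.51 (SE 0.20). The second receptor gene THRA (ENSDARG00000000151) differed by log2 0.95 and 1.08, and its copy THRA (ENSDARG00000052654), at 0.32 and 0.18, passed the test against the bmp4 controls only. The inactivating deiodinase dio3b was higher (14.5 against 3.74 and 4.17 TPM, log2 2.17 and 2.09). The activating deiodinase DIO2 was at 9.49 against 9.52 and 9.38 TPM, with adjusted p of 0.403 and 0.226. DIO1 (log2 1.08 and 0.78), TSHR (2.3 and 0.18), KLF9 (0.82 and 1.2), NCOA1 (-0.94 and -0.95), NCOA2 (-0.40 and -0.56), NCOR1 (0.15 and -0.03) and the transporter SLC16A10 (-0.17 and -0.54) were not called. The genes thrsp and TTR were under 0.3 TPM in every group and not tested.

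Members of the BMP pathway and LDL receptor lists were called at shares near those over all genes. Of 56 BMP pathway genes 11 were higher and 7 lower, near the shares over all genes, and 6 or 7 were higher on the log2 TPM scale, with total count scaling or without month-old library 3. Bone morphogenetic protein BMP4 itself was at 2.52, 2.85 and 3.61 TPM at 1 month, 3.84, 3.46 and 3.75 in the bmp4 controls and 2.6, 4.43 and 2.61 in the shh controls, a difference that did not pass the test (log2 -0.08 and 0.21, adjusted p of 0.809 and 0.497). Among the higher were the BMP antagonist SOST (18.9 against 2.36 and 1.89 TPM, log2 3.21 and 3.63), bmp16 (3.42 and 3.71), the chordin-like gene chrdl2 (2.82 and 2.93) and the procollagen protease BMP1 (ENSDARG00000028053; 1.93 and 2.02). The signal transducer SMAD1 (log2 -1.09 and -1.07) and the target msx1b (-1.55 and -1.82) were lower. ID1, a BMP target and the most abundant gene of the list, was at 233 against 284 and 236 TPM, with adjusted p of 0.724 and 0.117. Of the LDL receptor family and its partners 3 of 24 (12.5%) were higher and 4 (16.7%) lower, against 17.7% and 15.8% of all genes. Their summed level was 447 TPM at 1 month against 1045 and 912 TPM in the larval sets. Much of this gap lay in 1 gene that was not called, clusterin (CLU, described below), at 195 against 741 and 563 TPM. The list medians were log2 -0.03 and -0.17. The megalin gene LRP2 was lower, at 11.1, 8.05 and 7.94 TPM at 1 month, 26.4, 24.3 and 15.3 in the bmp4 controls and 34, 35.4 and 21.6 in the shh controls, with log2 -1.03 (SE 0.19) and -1.41 (SE 0.19) and adjusted p of 0.00157 and 0.000233. The low-density lipoprotein receptor ldlra was lower (log2 -1.54 and -2.03) and the endocytic adaptor dab2 higher (2.1 and 1.23). Clusterin, CLU, a chaperone ligand of megalin, was at 133, 224 and 229 TPM at 1 month, 1012, 841 and 370 in the bmp4 controls and 817, 228 and 644 in the shh controls, and its log2 of -1.54 and -1.08 passed the test against the bmp4 controls only (adjusted p of 0.0201 and 0.0759).

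Of hedgehog genes 7 of 18 (38.9%) were lower and 2 (11.1%) higher, against 15.8% and 17.7% of all genes. Without month-old library 3 the lower ones were 4. There were 0 higher with total count scaling, without library 12 of the shh controls and without month-old library 3. In the lrp2-/- and transgenic libraries 1 was higher and 1 lower. The transcription factors GLI2 (ENSDARG00000025641) and GLI3 differed by log2 -1.24 and -1.14 and -0.95 and -1.02, and the coreceptor CDON by -0.66 and -0.56. The 2 genes with the symbol SHH were at 2.6 against 5.27 and 3.38 TPM (ENSDARG00000038867) and 2.66 against 5.32 and 6.57 TPM (ENSDARG00000068567), and neither passed the test against either set (log2 -0.80 and -0.06 and -0.78 and -0.98). Retinoic acid genes were higher for 4 of 23 and lower for 4, 17.4% each and near the shares of all genes, and on the log2 TPM scale 2 were higher and 6 lower. The degrading enzyme CYP26C1 was lower (log2 -1.34 and -1.78) and the synthesizing enzyme ALDH1A3 higher (0.80 and 0.87). Genes named in studies of eye size were higher for 22 of 39 members (56.4%, against 17.7% of all genes). They were lower for 4 (2 without month-old library 3), and this 10.3% was under the 15.8% of all genes. The secreted complement-related gene C1QTNF5 was at 11.7, 15 and 16.2 TPM at 1 month, 0.51, 0.11 and 0.16 in the bmp4 controls and 0.34, 0.37 and 0.11 in the shh controls (log2 6.04 and 5.99), the gelatinase MMP2 at 58.2 ± 6.57 TPM at 1 month against 17.5 ± 0.527 and 15.6 ± 1.69 TPM (1.95 and 2.2), and the dopamine receptor drd4a at 35.9 against 8.82 and 10.2 TPM (2.25 and 2.09). The serine protease prss56 was higher (log2 2.11 and 2.2), but its log2 values in the lrp2-/- and transgenic libraries were -1.08 and -0.88. MFRP, whose human gene is linked to small eyes, was lower (0.68 against 3.63 and 2.74 TPM, log2 -2.19 and -1.72).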

How the data were processed

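RNA of dissected eyes was kept in RNAlater, extracted with Trizol and made into low-input Illumina libraries, per the labels' protocols. The submitters' processing notes name Bowtie2, HISAT and the genome build GRCz10, and the strand setting is not given in the sources used here. The authors deposited 3 workbooks with expected counts, TPM and FPKM per gene. The deposited expected counts, estimates that divide shared reads among genes, were rounded and tested. The deposited TPM gave levels, and the deposited FPKM served only to compare gene lengths across tables. Gene symbols came from an Ensembl identifier table that matched 26108 of 31916 genes, and the 5808 without a symbol held 2.22% of counts. A symbol in capitals is the human orthologue's.

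The 9 libraries were fitted together in edgeR 4.0.16 (R 4.3.3; TMM scaling, filter on low counts, robust quasi-likelihood fit) with 1 term per group, and a gene was called where both comparisons had a Benjamini-Hochberg adjusted p under 0.05 with the same sign. Simulated data with known changes were used to test the fit. Alternatives were DESeq2 1.42.0, limma 3.58.1 on log2(TPM + 1), other scalings, no filter, crystallins left out, only the 6 libraries of a comparison, a log2 limit of 2, and each library left out. The genes, the 45 gene lists and the tests were chosen with earlier results of these data known. Named were the 12 largest and 8 most abundant large changes in each direction among symbols at 10 TPM or more without overlap, up to 4 members per list and direction, its most abundant member, all cone opsins, globins and thyroid genes, and the study's own genes. Some genes that this rule names are not reported here. CRYAA and crygm2d10 were added to complete their family. Depth limits low genes, and intervals cover counting error only. No promoter, protein or genome sequence was used here.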

Additional observations from a re-analysis of the deposited data

Results flagged for a closer look

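The larval control sets share an age, and 14 genes differed between them (edgeR quasi-likelihood test of the difference, adjusted p under 0.05), and values here are log2, bmp4 controls minus shh controls. Higher in the bmp4 controls were the troponin gene tnnt2d (1.89), HNRNPK (ENSDARG00000007034; 0.83), the chaperone gene hsp90aa1.1 (2.02), the keratin gene krt1-19d (1.93), EHD2 (ENSDARG00000040362; 1.22), alox5b.2 (6.1), si:ch211-233m11.1 (5.15), si:ch211-207c6.7 (3.79) and si:ch211-207c6.6 (4.44). Higher in the shh controls were NIN (-1.46), si:ch211-121a2.2 (-5.92), zgc:174862 (-7.2), ENSDARG00000070506 (-3.71) and ENSDARG00000070516 (-4.5). EHD2 (ENSDARG00000040362) was the only one of the 14 that was called against both sets, as higher at 1 month.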

How the results depend on the processing

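With limma on log2(TPM + 1), 2594 genes were higher and 5321 lower against both sets, 1048 were higher by log2 1 or more, and against the shh controls 3031 were higher and 7495 lower. Of the genes called by edgeR, 2523 of 3906 and 3405 of 3474 kept their call there, and with total count scaling 3011 and 3474. The number of the 45 lists with both medians above 0 was 27 with TMM and 16 on the log2 TPM scale. At a limit of log2 2 the large changes were 848 higher and 319 lower, and the highest tissue was retina for 38.8% and 8.15% of them, with RPE at 16.2% and choroid with sclera at 43.4% of the higher ones. The 14 genes between larval sets became 249 with DESeq2, 4 with their own 6 libraries, 9 with total count scaling and 0 to 13 with a library left out. In lrp2-/- and transgenic libraries DESeq2 called 1997 lower, and leaving out a library gave 1101 to 3509 higher and 570 to 3200 lower. The cause was not tested. Leaving out a library gave 3180 to 3876 higher and 2648 to 3679 lower genes against both sets. Of the genes named as called, GNGT2 (ENSDARG00000103543), HK1, SPARC, TAP1, mmp13a and plaua lost a call in 2 or 3 of the fits that left out a library (edgeR adjusted p of 0.0501 to 0.108), and GNGT2 (ENSDARG00000103543) and PER3 lost it on the log2 TPM scale. No named gene called against both sets changed sign under the other settings for these 9 libraries. On the log2 TPM scale 52 of 90 list medians moved by more than the replicate spread. Leaving out retina library 12, a choice made after seeing its crystallin level, gave retina as the highest tissue for 43.8% of the large higher and 25.7% of the large lower genes and RPE for 19.8% and 35.8%, and choroid with sclera for 26.2% of the large lower genes.

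No paired analysis was possible because month-old and larval libraries share no replicate numbers. Between the larval sets, a replicate block gave 8 genes. Same-numbered libraries deviated together with r of 0.033, 0.0337 and 0.0845, and differently numbered ones with r of -0.0591 to 0.0266. Whether equal numbers mark libraries handled together is not stated by the labels used here and was not tested.

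Age cannot be told apart from table, and the 3 libraries a group and their depth limit low genes.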

Other observations

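Of 39 clock and light-response genes 7 (17.9%) were higher at 1 month (3 on the log2 TPM scale) and 12 (30.8%) lower. Over all genes the shares were 17.7% and 15.8%. The melatonin enzymes aanat2 and ASMT, which photoreceptors and pineal cells use, were at 98.6 against 14.5 and 18.9 TPM (log2 2.93 and 2.66) and 23.9 against 4.76 and 8.57 TPM (log2 2.56 and 1.79). The light-responsive clock gene PER2 was at 28, 18.2 and 20 TPM at 1 month, 97, 83.8 and 64.3 in the bmp4 controls and 129, 110 and 138 in the shh controls (log2 -1.64 and -2.19). Lower as well were the clock repressor gene nr1d4b (log2 -2.4 and -2.78) and cry-dash (-1.61 and -2.21), and higher were nfil3-6 (2.22 and 2.51) and PER3 (1.07 and 0.94). No label used here gives the hour at which the eyes were taken. Of 22 tested opsins outside rods and cones 5 (22.7%) were higher and 3 (13.6%) lower, near the shares over all genes. With total count scaling and on the log2 TPM scale 5 were lower. The gene opn6b was at 138, 96.8 and 106 TPM at 1 month, 21.1, 14.4 and 21.1 in the bmp4 controls and 20.9, 32 and 25.4 in the shh controls (log2 2.79 and 2.41) and opn9 at 66.3 against 29.5 and 34.1 TPM (1.39 and 1.26), while the melanopsin gene opn4xb (-0.70 and -0.83) and the RPE opsin RRH (-1.05 and -0.83) were lower.

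Of 37 matrix proteases and their inhibitors 14 (37.8%) were higher and 7 (18.9%) lower, against 17.7% and 15.8% of all genes. The share lower thus lay near that of all genes. The inhibitor TIMP4 (ENSDARG00000102617) was at 5.09 against 0.357 and 0.183 TPM (log2 4.1 and 5.08), and the urokinase gene PLAU at 4.98 against 1.25 and 0.95 TPM (log2 2.17 and 2.7), whereas its relative plaua was lower (-1.97 and -1.4). The collagenase gene mmp13a (-1.39 and -2.42) was lower. Both plaua and mmp13a lost their call in some of the fits that left out a library. Of 6 tested apolipoproteins apoc1 was the only one called, at 49.8 ± 7.67 TPM at 1 month against 7.17 ± 0.429 and 6.27 ± 2.55 TPM (SD, n = 3; log2 3.02 and 3.27), and apoeb, the most abundant, was at 853 against 808 and 657 TPM (log2 0.34 and 0.70).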
